A study of Mus musculus with 7 samples.

Results

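The 9 chemokine receptor genes Ccr1, Ccr2, Ccr3, Ccr9, Cxcr4, Cxcr2, Cxcr6, Cx3cr1 and Xcr1 were examined for open-chromatin regions (OCRs) in HPC7 cells. Every peak that overlapped a gene body or the 30 kb on either side was taken (mm10, GENCODE M21), and peaks of different libraries that overlapped by at least 1 bp were merged into 1 OCR. The 9 windows held 129 of the 144931 merged OCRs of the series, and 5 of these lay in more than 1 window. HPC7 is a mouse hematopoietic progenitor line that grows in stem cell factor, and bulk ATAC-seq, in which a transposase cuts accessible DNA, was performed on 7 libraries made from separate cultures (HPC7-1, HPC7-2, HPC7-4, HPC7-5, HPC7-6, HPC7-7 and HPC7-8). They form a single condition by their labels, so genes and OCRs were compared within libraries and the spread is that over libraries. The names of the peaks in the lists carry VD in 3 libraries and EtOH in the other 4. The labels do not explain these prefixes, they were not used as conditions, and mean differences within each are given below. HPC7 is 1 cell line, and no sorted cell type stands beside it for comparison.

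The lists held between 84593 (HPC7-6) and 132852 (HPC7-1) OCRs, and the reads expected from the background at a peak ran from 4.44 (HPC7-2) to 20.4 (HPC7-1), as recovered from the steps of the fold enrichment. Fold enrichment is therefore not on the same scale in every library, and the intensity of an OCR is given as its percentile: the share of the peaks of that library whose fold enrichment it reached. A percentile depends in turn on which peaks a library lists, and the lists differ in length. Lists of equal length were used for counts and the cluster density only, so their effect on the percentiles was not tested. All 8 progenitor genes checked (Kit, Spi1, Gata2, Runx1, Lmo2, Lyl1, Tal1 and Ptprc) had a promoter OCR in all 7 libraries. Among 9 genes of T cells, liver and fibroblasts, Cd3d, Apoa2, Col1a1 and Pdgfra also had one, although no OCR lay within 1 kb of a start of Apoa2 in any library.

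Chemokine receptors are G-protein-coupled receptors of the cell surface that steer leukocytes along gradients of chemokines, and in the blood-forming system they set where progenitors and mature cells lodge. Cxcr4 binds Cxcl12 and holds stem and progenitor cells in the bone marrow. Ccr1, Ccr2 and Ccr3 bind CC chemokines and are known from myeloid cells, with Ccr2 needed for monocytes to leave the marrow and Ccr3 used by eosinophils. Cxcr2 releases neutrophils, Ccr9 guides T cells to the gut and thymus, Cxcr6 binds Cxcl16 on T and natural killer T cells, Cx3cr1 marks monocytes and microglia, and Xcr1 marks cross-presenting dendritic cells. Several of the CC receptor genes, with Cxcr6 and Xcr1, lie side by side on mouse chromosome 9.

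The sequences below are those of the OCRs the results turn on: the 250 bases before the start of Ccr1 and Cxcr4, the only members with an OCR within 1 kb of a start in all 7 libraries, and 201 bases centred on the summit of the strongest distal OCRs of Ccr1, Cxcr4 and Ccr3 and of the next strongest of Ccr1. They were taken from RefSeq (GRCm38.p6), and read 5′ to 3′ on the strand given. Capitals mark matches on either strand to short motifs of blood-cell factors. The letters searched were GAGGAAGT for PU.1, a factor of myeloid cells and B cells, TGTGGTT for the RUNX family, AGATAA for the GATA family, CAGCTG for an E-box bound by basic helix-loop-helix factors, and TTGCNNAA for the C/EBP family of myeloid factors. The AP-1 letters TGACTCA and the CTCF core were searched as well and have no match in these 6 sequences.
Ccr1 promoter, chr9:123968693-123968942, minus strand: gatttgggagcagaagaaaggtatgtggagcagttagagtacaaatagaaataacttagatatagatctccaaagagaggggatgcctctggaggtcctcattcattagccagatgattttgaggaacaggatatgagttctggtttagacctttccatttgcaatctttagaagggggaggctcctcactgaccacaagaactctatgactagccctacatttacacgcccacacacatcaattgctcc
Cxcr4 promoter, chr1:128592300-128592549, minus strand: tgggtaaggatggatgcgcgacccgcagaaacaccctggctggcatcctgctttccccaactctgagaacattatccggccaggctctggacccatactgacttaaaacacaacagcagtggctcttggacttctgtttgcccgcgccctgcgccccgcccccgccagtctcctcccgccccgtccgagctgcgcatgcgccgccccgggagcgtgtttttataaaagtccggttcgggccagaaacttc
Ccr1 strongest distal OCR, chr9:123928896-123929096, plus strand: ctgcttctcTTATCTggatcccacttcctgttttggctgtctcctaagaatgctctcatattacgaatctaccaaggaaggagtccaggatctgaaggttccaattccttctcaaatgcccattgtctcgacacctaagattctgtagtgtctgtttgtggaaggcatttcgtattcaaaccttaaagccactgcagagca
Ccr1 next distal OCR, chr9:123941410-123941610, plus strand: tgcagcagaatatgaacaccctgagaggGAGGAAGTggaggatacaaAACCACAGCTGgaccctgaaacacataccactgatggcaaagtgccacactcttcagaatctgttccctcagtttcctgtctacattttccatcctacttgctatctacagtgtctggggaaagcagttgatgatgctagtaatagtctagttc
Cxcr4 strongest distal OCR, chr1:128615199-128615399, plus strand: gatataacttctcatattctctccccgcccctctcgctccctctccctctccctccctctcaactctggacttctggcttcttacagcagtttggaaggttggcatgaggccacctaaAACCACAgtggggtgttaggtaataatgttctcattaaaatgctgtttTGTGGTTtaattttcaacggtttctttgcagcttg
Ccr3 strongest distal OCR, chr9:124037879-124038079, plus strand: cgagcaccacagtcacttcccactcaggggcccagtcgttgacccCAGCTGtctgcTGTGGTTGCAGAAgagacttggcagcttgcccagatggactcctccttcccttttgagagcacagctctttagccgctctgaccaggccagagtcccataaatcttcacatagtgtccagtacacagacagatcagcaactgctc

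Of the 129 OCRs in the windows, 69 (53.5%) had a peak in all 7 libraries, beside 46.2% of all merged OCRs. A further 45 were found in 2 to 6 libraries and 15 in only 1, of which 13 were from HPC7-1, the library with the longest list. OCRs found in all 7 libraries had a median percentile of 67.3, those in 2 to 6 libraries 23.5 and those in 1 library 12.1. The same medians over all merged OCRs were 66, 20.7 and 9.47, so the receptor windows followed the series in that weak OCRs were found in fewer libraries. A library listed between 83 (HPC7-6) and 128 (HPC7-1) peaks in the windows, with a mean of 101 ± 15.6 (SD, n = 7), where 1 merged OCR can hold several peaks of a library.

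The intensity of the OCRs in the windows as a whole was close to the middle of each library. The median percentile was lowest at 46.8 and highest at 54.6, with a mean of 49.6 ± 3.11 (SD, n = 7). It differed from 50 by -0.428, lay above 50 in 2 of 7 libraries, and the exact two-sided sign-flip permutation test over libraries gave p = 0.688.

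The genes differed in how many OCRs surrounded them. Cxcr4 had 18 OCRs, or 28.1 per 100 kb of window, and 92.7% of all protein-coding genes had a window of at most that density. Ccr1 had 17 (25.5 per 100 kb), and 12 of them were found in all 7 libraries. Ccr3 and Cxcr2 each had 14, but 7 of the OCRs of Ccr3 and only 3 of those of Cxcr2 were found in all 7 libraries. Ccr2 had 12, with 9 in all libraries. At the other end, Cxcr6 had 4 OCRs (6.13 per 100 kb) and Xcr1 had 5 (7.17 per 100 kb), below the median of 10.4 per 100 kb over protein-coding windows. Cx3cr1 had 37 and Ccr9 had 13, but a single long transcript of each stretches their windows to 228 kb and 166 kb, which take in other genes. Per 100 kb, Cx3cr1 had 16.2 and Ccr9 had 7.84.

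**Figure D1:**
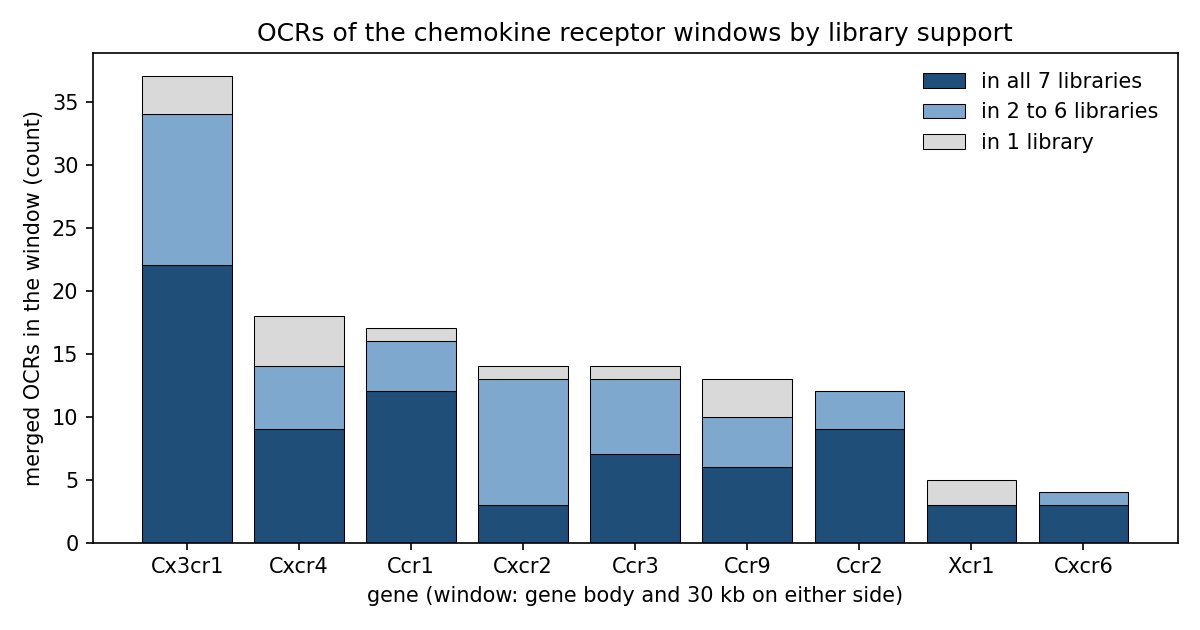
Number of merged OCRs (y axis) in the window of each gene (x axis, gene body and 30 kb on either side), split by how many libraries listed them. The 37 OCRs of Cx3cr1 lie in a window of 228 kb, while Cxcr4 and Ccr1 reach 18 and 17 in windows of 64.1 and 66.6 kb.

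By position, 15 of the 129 OCRs lay at a promoter of the member itself, within 3 kb of an annotated transcript start, and 8 of these were found in all 7 libraries. A further 28 lay at a promoter of another gene, pseudogenes and noncoding genes included (15 in all libraries), 38 in a gene body (19 in all) and 48 between genes (27 in all). Among those in all libraries, the median percentile was 68.6 at the members' promoters and 68.6 between genes, 80.7 at other genes' promoters, and 47.8 in gene bodies. A percentile of 90 or above, a limit chosen after the values were seen, was reached by 10 OCRs. These were 2 intergenic OCRs of Ccr1, the promoter and the distal OCR of Cxcr4, and 6 OCRs at the promoters of other genes: Lztfl1 in the Ccr9 window, Fyco1 in the Xcr1 window, Wdr48, Gorasp1 and Csrnp1 in the Cx3cr1 window, and Rufy4 and Tns1 in the Cxcr2 window. By the definition of the percentile, about 10% of the peaks of any library reach 90. The share of all merged OCRs that reach this limit was not computed, so the count describes the windows and does not set them apart.

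A promoter OCR was present in all 7 libraries at 5 of the 9 members, Cxcr4, Ccr2, Ccr1, Cxcr2 and Ccr3. This is close to the background, since the same held for 60.8% of 21938 protein-coding genes. With the promoter taken as 1 kb on either side of a start, only Ccr1 and Cxcr4 kept one, 2 of 9, beside 55.9% of protein-coding genes. The summits of the promoter OCRs of Ccr2, Cxcr2 and Ccr3 lay 1 to 3 kb from a start. The median promoter of the protein-coding genes with one in all libraries stood at percentile 93.1. Cxcr4 was above it, with 58% of these genes at or below its mean, and the other 4 members were below it, with 19.4% at or below Ccr2, 14.7% at or below Ccr1, 7.83% at or below Cxcr2 and 2.37% at or below Ccr3.

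Cxcr4, the receptor that retains progenitors in the marrow, had the strongest promoter of the members. Its promoter OCR, chr1:128589131-128593970, spanned 4840 bp and covered the starts of the gene, which lies on the minus strand. The percentile was lowest at 93.1 (HPC7-5), had a median of 94.4 and was highest at 96.5 (HPC7-7), with a mean of 94.5 ± 1.23 (SD, n = 7). The fold enrichment was 88.2 ± 12.7, from 418 to 2125 reads at the summit. The fold enrichment ran from 65.7 to 99.5 over the libraries. The printed promoter holds none of the motifs searched, while the bases within 100 bp of the summit, at -0.27 kb and just beyond the printed stretch, hold a match to the CTCF core. Positions are counted from the nearest start, negative upstream. A weaker promoter OCR at -3 kb was found in all libraries at 27 ± 13.1.

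The strongest distal OCR of Cxcr4 was slightly more open than its promoter. It lies between genes at -23 kb, chr1:128613733-128616212, and its percentile was lowest at 94.4 (HPC7-5), had a median of 97.2 and was highest at 97.7 (HPC7-7), with a mean of 96.7 ± 1.18. The promoter was lower in 7 of 7 libraries, by -2.25 ± 1.06 percentiles (SD of the difference, n = 7), and the exact sign-flip permutation test gave an adjusted p of 0.0156, the smallest that 7 libraries allow. The 2 ranges overlap, and the call rests on the pairing within a library. The difference turned to +38.7 when only OCRs within 10 kb counted, since the upstream OCR is then outside the window. The summit of this OCR holds the RUNX letters at both positions 119 to 125 and 167 to 173 of the printed sequence. In this and the following comparisons the distal OCR was chosen as the highest of several, which favours it. OCRs at a promoter of the member or of another gene were not counted as distal. The p-values were adjusted over the 5 members by the Benjamini-Hochberg method.

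Downstream of Cxcr4 a series of weaker OCRs was found in all libraries, with mean percentiles of 55.7 ± 8.96 at 8.86 kb, 65.8 ± 6.38 at 18.1 kb, 76.8 ± 3.8 at 21.2 kb, 31.4 ± 14.1 at 24.4 kb and 68.6 ± 5.8 at 28.2 kb from the start. Among them stood 2 OCRs of a single library, HPC7-1, at percentiles of 12.1 and 17.3.

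Cxcr2, the receptor with which neutrophils leave the marrow, had its promoter OCR inside the gene. This OCR, chr1:74156273-74156837, had its summit in an intron 2.56 kb downstream of the start, and a further OCR at 1.8 kb was listed in 3 libraries only. The percentile was lowest at 48.7 (HPC7-2), had a median of 61.2 and was highest at 75.3 (HPC7-1), with a mean of 61 ± 8.9. HPC7-1 stands above the other libraries here, and it is also the library with the longest list and the highest background, whose part in the value was not tested.

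The strongest distal OCR of Cxcr2, chr1:74172615-74173329, lies between genes 18.9 kb downstream of the start, with percentiles from 76.3 (HPC7-6) through a median of 80.7 to 84.9 (HPC7-1 and HPC7-8) and a mean of 81 ± 3.08. The promoter was lower in 7 of 7 libraries by -20 ± 6.84 (exact sign-flip test, adjusted p = 0.0156), and no library of the distal OCR reached down to the promoter's range. With windows of 100 kb the difference grew to -31.7. An OCR at the promoters of Rufy4 and Tns1, not counted as distal, stood higher within the 30 kb window, at 91 ± 1.57. The neighbouring receptor gene Cxcr1 had a promoter OCR in all 7 libraries at 55.1 ± 7.3, but none within 1 kb of its start. Of the 14 OCRs around Cxcr2, 7 lay in the body of Rufy4, none of them in all libraries and none with a mean above 35.8.

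**Figure D2:**
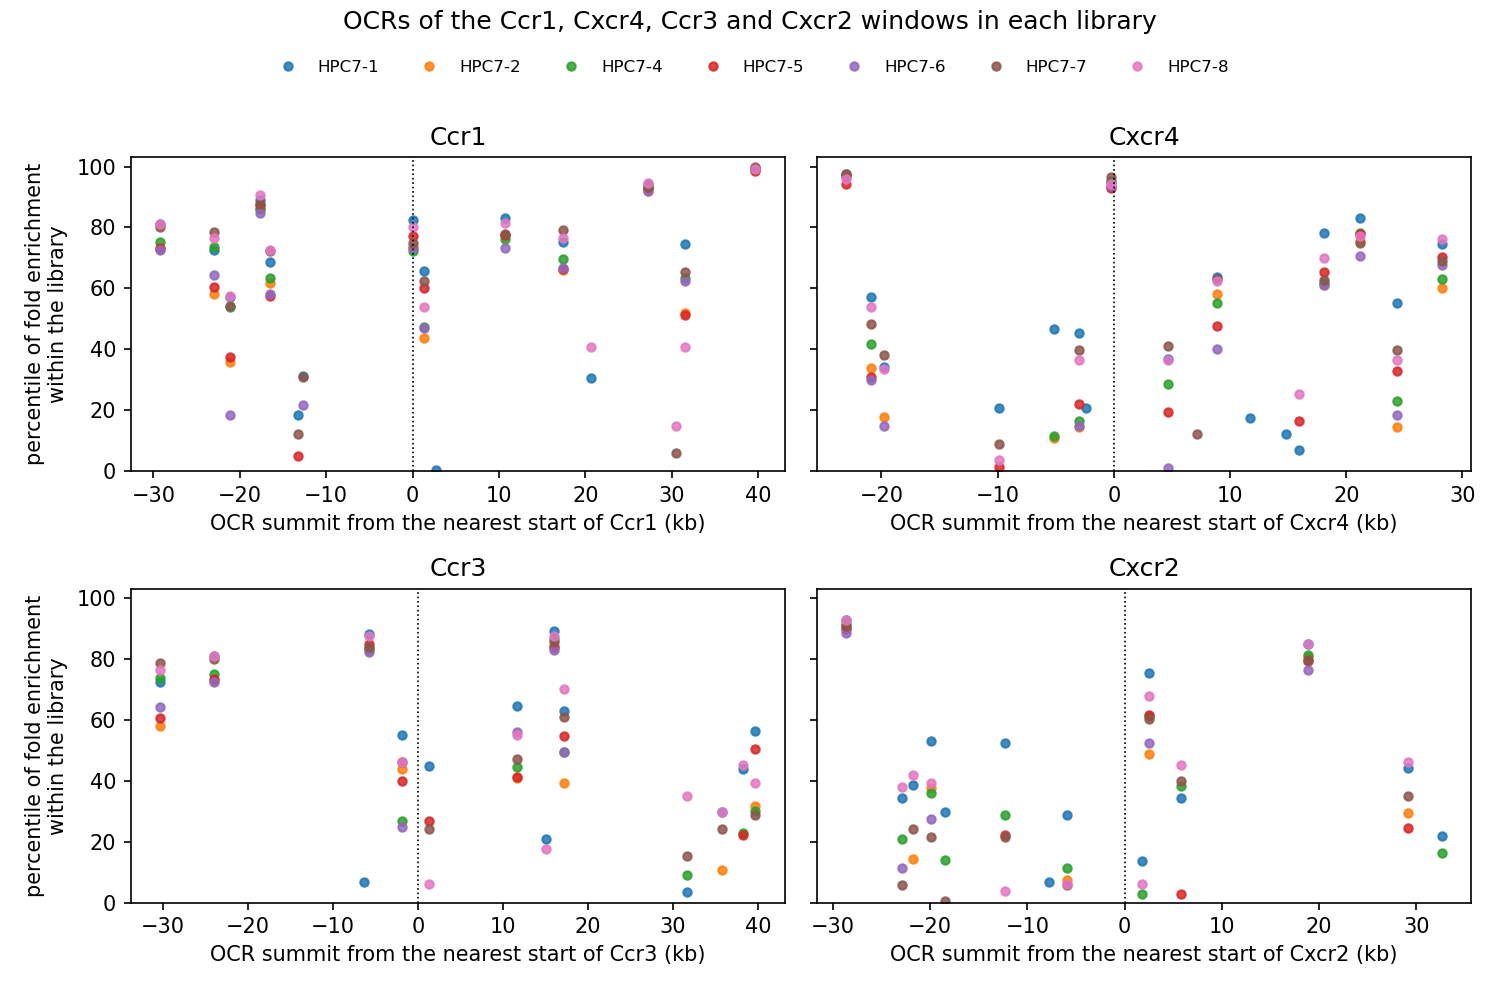
Percentile of fold enrichment within the library (y axis) of each OCR against the distance of its summit from the nearest start of the gene (x axis, kb, positive downstream in the direction of transcription), with 1 point per library. Outside the promoters of other genes, the strongest points are the distal OCRs of Ccr1 and Cxcr4, at means of 99.2 and 96.7. The Ccr3 promoter runs from 24.7 to 55. A percentile cannot exceed 100, so the spread of points near the top is not comparable with that lower down.

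Ccr1, a receptor of myeloid cells for several CC chemokines, had an OCR directly on its start. The OCR chr9:123968219-123969014 had its summit at -0.011 kb from the only annotated start, and the gene lies on the minus strand. The percentile was lowest at 72.2 (HPC7-4), had a median of 75 and was highest at 82.3 (HPC7-1), with a mean of 76.2 ± 3.76 (SD, n = 7) and a fold enrichment of 17.9 ± 4.01 from 86 to 454 reads. A second OCR in an intron at 1.3 kb was found in all libraries at 54.3 ± 8.56.

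The strongest OCR near Ccr1 was far more open than its promoter. The OCR chr9:123927304-123934441 begins outside the 30 kb window and reaches into it, with its summit 39.7 kb downstream of the start. Its percentile was lowest at 98.4 (HPC7-5), had a median of 99.2 and was highest at 99.8 (HPC7-7), and its fold enrichment was 185 ± 22.5. The promoter was lower in 7 of 7 libraries by -23 ± 3.91 (exact sign-flip test, adjusted p = 0.0156). In HPC7-1, HPC7-4, HPC7-6 and HPC7-7 the highest peak itself reaches into the window. In the other 3 libraries it ends before it, and the pieces inside the window stood at 92.2 (HPC7-5), 93.6 (HPC7-2) and 95.2 (HPC7-8). With only peaks that reach into the window the difference was -20.7, and with OCRs within 10 kb of the gene it was -1.87 (exact sign-flip test, adjusted p = 0.0312), against an OCR at 10.7 kb that stood at 78.1 ± 3.22.

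The next strongest distal OCR of Ccr1, chr9:123940625-123942430, lies fully inside the window, 27.2 kb downstream, and its percentile ran from 91.9 (HPC7-2) through a median of 93 to 94.5 (HPC7-8), with a mean of 93.2 ± 1.02. All 7 libraries lay above the highest value of the promoter, 82.3. This summit holds PU.1, RUNX and E-box letters within 30 bases, from position 29 to 58 of the printed sequence, where the RUNX and E-box letters overlap, while the summit at 39.7 kb holds a single GATA match at positions 10 to 15 and the promoter holds none. On the other side, upstream of Ccr1, the strongest OCR was at -17.7 kb and stood at 87.5 ± 1.98, and 4 others within 30 kb were found in all libraries at means of 44.9 to 76.6.

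Ccr2, the receptor for Ccl2, had 2 promoter OCRs in all 7 libraries. The first, chr9:124103175-124103806, had its summit 1.29 kb downstream of the nearest start at 81.6 ± 2.83, and the other, chr9:124108328-124109169, 2.98 kb downstream of a later start at 82.4 ± 2.9. Taking the higher in each library, the percentile was lowest at 77.9 (HPC7-6), had a median of 82.9 and was highest at 86.1 (HPC7-8), with a mean of 82.6 ± 2.92. The summits of both lie in annotated untranslated parts of Ccr2 transcripts, so their sequences are not printed.

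Ccr2 was the only one of the 5 members whose promoter stood above its strongest distal OCR in the 30 kb window. The distal OCR, chr9:124112519-124113055, lies in an intron of a Ccr2 transcript, and its percentile ran from 70.7 (HPC7-6) through a median of 74.7 to 83.4 (HPC7-8), with a mean of 75.9 ± 4.75. The promoter was higher in 7 of 7 libraries by 6.65 ± 2.66 (exact sign-flip test, adjusted p = 0.0156), although the ranges of promoter and distal OCR overlap. With windows of 100 kb, which take in stronger OCRs further off, the difference turned to -3.14. The promoter value is itself the higher of the OCRs at the starts.

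Ccr3, the eotaxin receptor of eosinophils, had the weakest promoter of the 5. Its OCR, chr9:124019879-124020327, had its summit at -1.9 kb from the only start, and the percentile was lowest at 24.7 (HPC7-6), had a median of 43.8 and was highest at 55 (HPC7-1), with a mean of 40.4 ± 11 and 24 to 123 reads at the summit. An OCR 1.26 kb downstream of the start was listed in 4 libraries. Stronger OCRs flanked the gene on both sides.

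Upstream of Ccr3, at -5.73 kb, an OCR stood at 84.7 ± 2.3, and the strongest, chr9:124037287-124038799, lay 16 kb downstream of the start and beyond the end of the gene. Its percentile ran from 83.1 (HPC7-6) through a median of 85.5 to 89.1 (HPC7-1), with a mean of 85.7 ± 2.16. The promoter was lower in 7 of 7 libraries by -45.3 ± 9.88 (exact sign-flip test, adjusted p = 0.0156), and the ranges do not overlap. The gap was wider than that of Ccr1 on the percentile scale, but as a difference of log2 fold enrichment it was -2.75 at Ccr3 and -3.39 at Ccr1. The printed summit holds an E-box, a RUNX and a C/EBP match within 24 bases, from position 46 to 69, with the last 2 overlapping.

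Ordered by intensity, the promoters ran Cxcr4, Ccr2, Ccr1, Cxcr2 and Ccr3. Each stood above the next in 7 of 7 libraries: Cxcr4 over Ccr2 by 11.9 ± 2.47, Ccr2 over Ccr1 by 6.35 ± 2.55, Ccr1 over Cxcr2 by 15.2 ± 6.07 and Cxcr2 over Ccr3 by 20.6 ± 9.42. The exact sign-flip permutation test gave p = 0.0156 for each of the 4 pairs, also after adjustment over them. The order was taken from the same means, so these tests are not independent of it. The ranges over libraries overlap between Ccr2 and Ccr1 and between each of the following neighbours, and only the differences within a library separate them, while the lowest value of Cxcr4 lies above the highest of Ccr2. The mean difference within the libraries of 1 prefix had the same sign for every pair, from 6.05 to 21.2 in the EtOH libraries and from 6.76 to 19.8 in the VD libraries, where 4 and 3 libraries cannot give a p below 0.125 and 0.25. The mean difference between promoter and strongest distal OCR also kept its sign within each prefix for all 5 members.

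**Figure D3:**
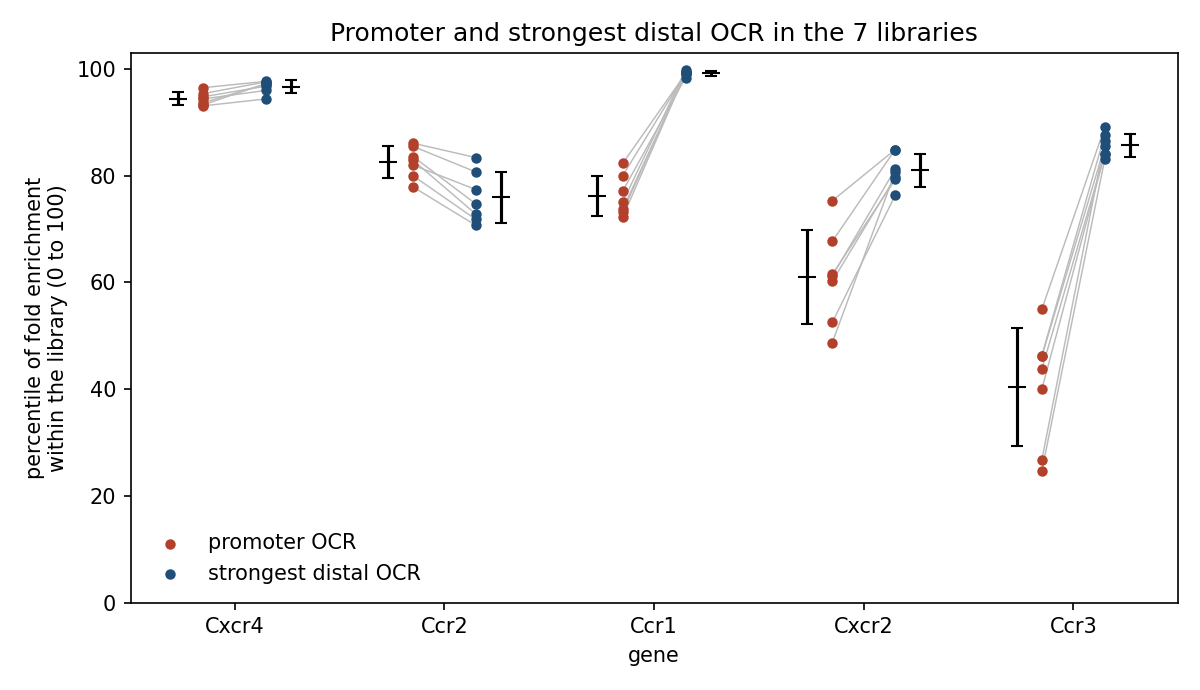
Percentile of fold enrichment within the library (y axis) of the promoter OCR and the strongest distal OCR of the 5 members with both in all libraries (x axis), with 1 point per library, lines joining a library, and bars for the mean and SD (n = 7). The promoter lies below the distal OCR in every library except at Ccr2, where it lies 6.65 percentiles above on average.

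The remaining 4 members had no promoter OCR in all libraries. At Ccr9 only HPC7-1 listed any, at percentiles of 23 and 40.4 and 84 reads or fewer, and no library listed an OCR within 3 kb of a start of Cxcr6, Cx3cr1 or Xcr1. Over all protein-coding genes, 32% had no promoter OCR in any library. At Cx3cr1 the nearest OCR, chr9:120073109-120073649, lay just beyond the limit, at -3.49 kb, and was found in all libraries at 64.2 ± 5.47. The strongest distal OCR of Cx3cr1, in an intron of its long transcript 37.6 kb downstream, ran from 67.3 (HPC7-5) through a median of 79.2 to 83.1 (HPC7-1), with a mean of 76.9 ± 5.63, and 2 others within 3 kb of it stood at 76.2 ± 2.93 and 68.4 ± 5.85. The nearest OCR to Cxcr6 in all libraries lay at -10.1 kb in an intron of Fyco1 and stood at 59.9 ± 8.49. The strongest OCR of Xcr1 that was not at a promoter was 26 kb downstream, also in Fyco1, at 34.7 ± 11.3. For Ccr9 the strongest OCR that was not at a promoter was the one given for Cxcr6, at 59.9 ± 8.49.

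Of 16 other chemokine receptor genes, 10 had a promoter OCR in each library, a share near the 60.8% of protein-coding genes, and its median percentile was 72.7. The 4 strongest were Ccr10 at 92.9 ± 1.49, Cxcr3 at 88.1 ± 1.94, Ccrl2 at 80.4 ± 3.82 and the atypical receptor gene Ackr4 at 77.6 ± 4.42, the last without an OCR within 1 kb of a start. A promoter OCR in some of the libraries was found at 3 (Ccr1l1, Ccr6 and Ackr3) and in none at 3 (Ccr8, Ackr1 and Ackr2).

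The chromosome 9 cluster, taken from 30 kb before Ccr9 to 30 kb after Ccr2 (chr9:123648439-124143557, 495 kb), holds 6 of the members. It contained 64 merged OCRs, of which 37 (57.8%) were found in all 7 libraries, beside 46.2% of all merged OCRs. Each library had between 82.8 (HPC7-6) and 125 (HPC7-1) peaks per Mb in the cluster, with a median of 101, and 32.1 (HPC7-6) to 50.4 (HPC7-1) per Mb over chromosomes 1 to 19 and X. The ratio was 2.57 ± 0.107 (SD, n = 7), between 2.41 and 2.71, and every library lay above 1. On the log2 scale this is 1.36 ± 0.06 (exact sign-flip permutation test, p = 0.0156, the smallest that 7 libraries allow). Beside windows around genes the cluster stood near the middle: its 64 merged OCRs are 12.9 per 100 kb, the median over protein-coding windows was 10.4, and 58.4% of these windows were at most as dense. The spread is over libraries at 1 locus and says nothing of other gene clusters. Within a prefix the log2 ratio was 1.34 (VD) and 1.38 (EtOH), and relative to the rest of chromosome 9 it was 1.33.

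The OCRs were not evenly placed along the cluster. From its start to the end of Xcr1, over 214 kb with Ccr9, Cxcr6 and Xcr1, there were 18 OCRs, 9 of them in all libraries, and the strongest belonged to the promoters of Lztfl1 (97.1 ± 0.522) and Fyco1 (98.8 ± 0.327). The 60.6 kb that follow held 1 OCR, listed by 1 library at percentile 0.132. From there to the end of the cluster, over 221 kb with Ccr1, Ccr3 and Ccr2, there were 45 OCRs, 28 of them in all libraries, or 12.7 shared OCRs per 100 kb compared with 4.21 in the first stretch. These limits were drawn after the positions were seen, so the densities are a description.

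**Figure D4:**
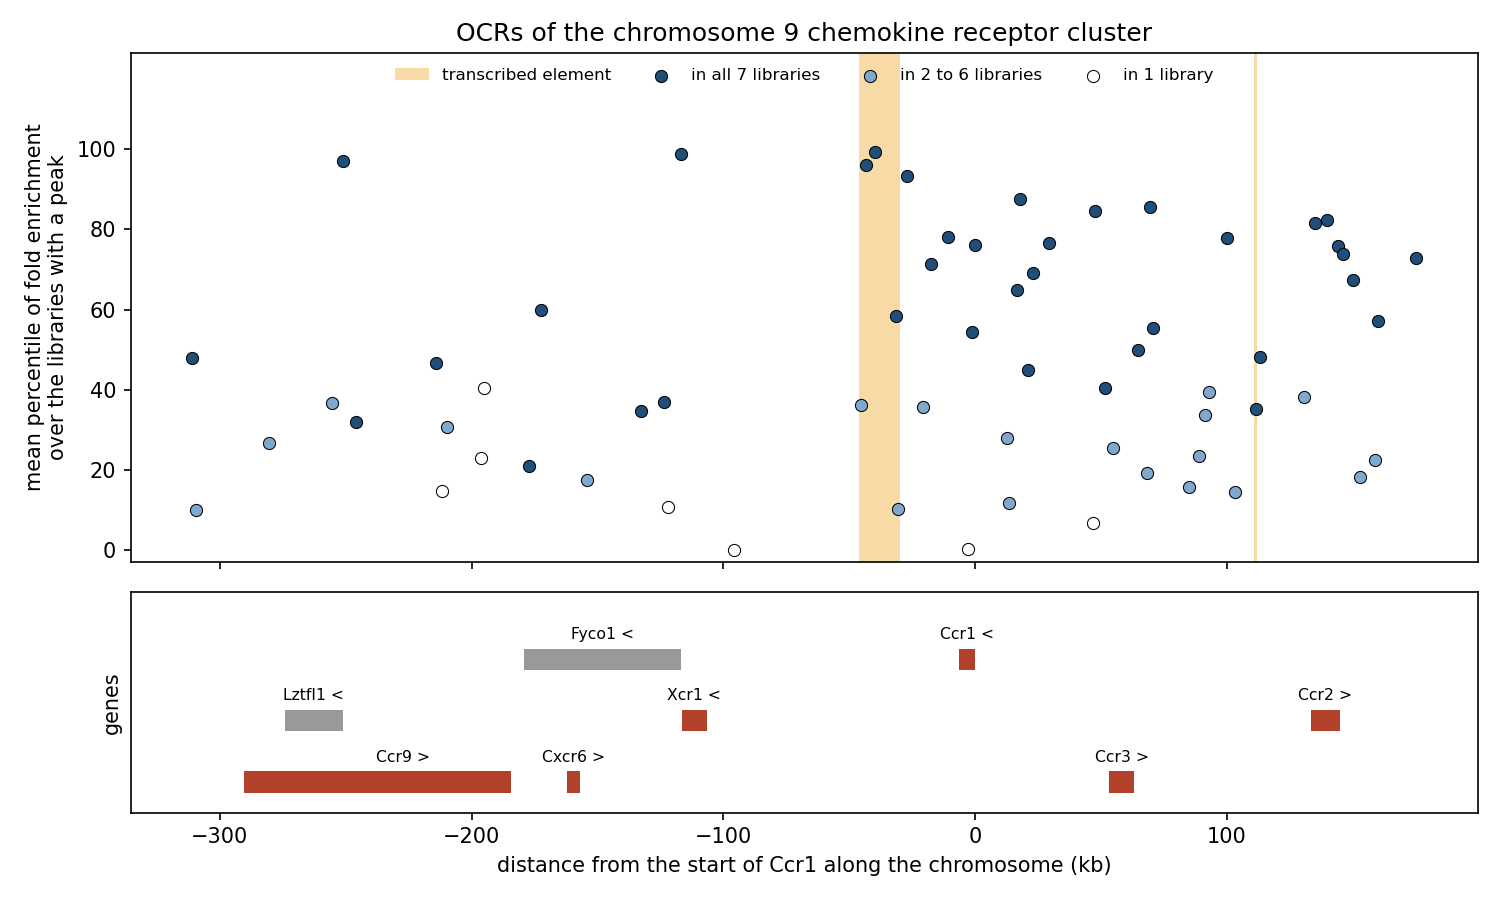
Mean percentile of fold enrichment (y axis, over the libraries with a peak) of the 64 OCRs of the cluster by the distance of their summit from the start of Ccr1 along the chromosome (x axis, kb), coloured by library support, with the members, Lztfl1 and Fyco1 below (members in red, the others in grey, arrows for the strand) and transcribed elements shaded. The transcribed elements next to Ccr1 hold OCRs at 96 and 99.2, and the stretch between Xcr1 and these elements holds 1 OCR.

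The study lists 145 transcriptionally active putative enhancers, open regions between genes with possible transcription of both strands, and 3 of them lie within 50 kb of Ccr1 or Ccr2. They were identified on these libraries combined with RNA-seq, so that they overlap OCRs is not independent. An OCR was found in all 7 libraries at 96 of the 145 elements and at each of these 3. The pair downstream of Ccr1, chr9:123922676-123926749 and chr9:123926807-123938823, ranked 10 and 5 among the 96 by mean percentile. The third, chr9:124079232-124080735, 21.2 kb before Ccr2, ranked 92.

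The element farther from Ccr1 lies 35.4 kb from the gene, and 64.1 ± 2.49% of its length was covered by OCRs. Its percentile ran from 94.8 (HPC7-5) through a median of 96.3 to 97.1 (HPC7-6), with a mean of 96 ± 0.931. The nearer, 12017 bp long and 23.3 kb from the gene, was covered over 71.4 ± 4.12% by 3 merged OCRs, and its highest is the strongest distal OCR of Ccr1 described above, at 99.2 ± 0.414. The element before Ccr2 was weak and varied: it ran from 7.89 (HPC7-6) through a median of 38 to 58.7 (HPC7-1), with a mean of 35.2 ± 15.5 and 19 to 139 reads, and only 23.3 ± 6% of it was covered.

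Compared within libraries, the Ccr1 promoter stood below the farther element by -19.8 ± 3.58 and below the nearer by -23 ± 3.91, the value already given for the distal OCR, and above the element before Ccr2 by 41 ± 12.8. Each difference had its sign in 7 of 7 libraries, with an exact sign-flip permutation p of 0.0156, also after adjustment over the 3 elements. The elements were identified on these same libraries, so the tests are not independent of that choice. Element and promoter each took the highest peak of a library within their limits, and the elements differ in length. The ranges of the promoter and of each element do not overlap.

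The motif letters at the summits were close to those of the whole series for most motifs. Within 100 bp of the summit, the 69 OCRs of the windows found in all libraries held GATA letters in 18.8%, RUNX in 17.4%, E-box in 13%, C/EBP in 8.7%, PU.1 in 7.25% and the CTCF core in 7.25%. The shares over all 66979 such OCRs were 14.8%, 12%, 14.7%, 7.04%, 7.16% and 7.41%. AP-1 letters were in none of the 69, compared with 8.98% of all, and in 6 of the 129 OCRs in any number of libraries (4.65%), beside 9.14% of all 144931. In the RefSeq promoters of the members, from 250 bases before to 50 after the start, all 9 of which were in the table, Ccr2 held a GATA match, Ccr3 a GATA and an AP-1 match and Cx3cr1 an E-box, and the other 6 held none. Over 32851 RefSeq promoters the shares were 11.2% for GATA, 5.2% for AP-1 and 16.3% for the E-box. These are matches of letters, with no test, and they do not show binding.

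**Figure D5:**
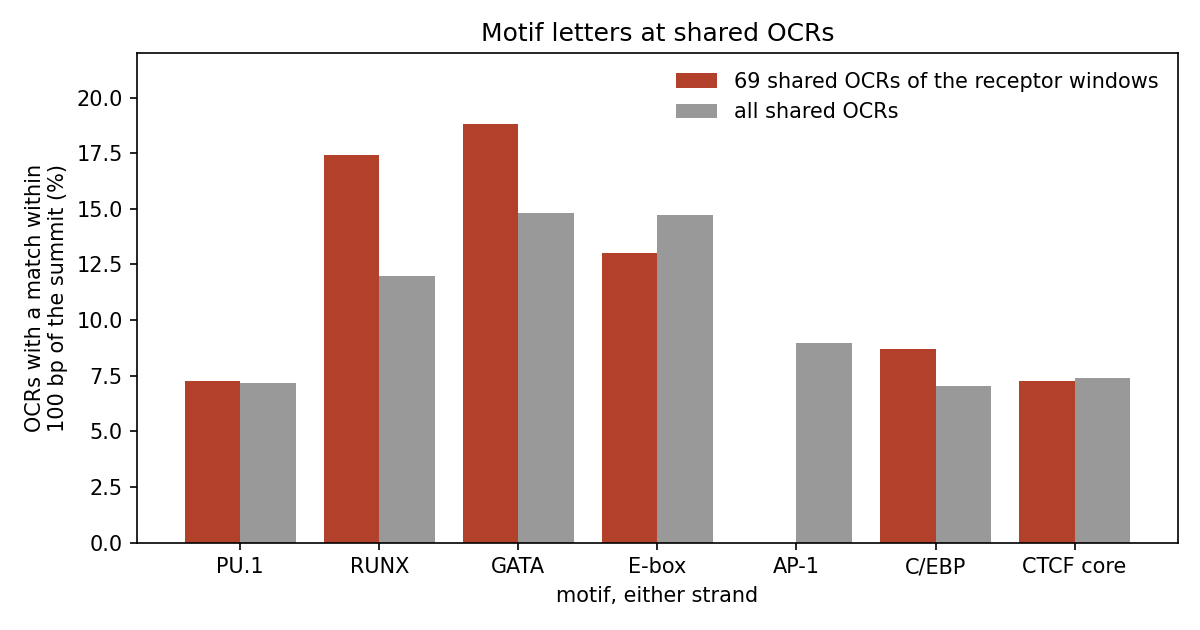
Percent of OCRs (y axis) with a match to each motif (x axis, either strand) within 100 bp of the summit, for the 69 OCRs of the receptor windows found in all libraries and for all 66979 such OCRs. RUNX letters are in 17.4% of the window OCRs and 12% of all, and AP-1 letters in none and 8.98%.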

How the data were processed

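Bulk ATAC-seq was performed on 7 libraries of HPC7 cells. Reads were trimmed (Cutadapt) and mapped to the mm10 genome (BWA-mem) by the authors, who called peaks with MACS2 separately in every library. Versions and options of these tools are not given in the sources used here. The deposited narrowPeak lists give a fold enrichment at the summit (a ratio), the −log10 p-value and −log10 q-value, an integer display score and the summit offset. The authors' score was not used. The deposited fold enrichments were whole multiples of 1 step per library for 100% of values below 50 (tolerance 0.02 of a step), from which the background and the reads at the summit were computed. These reads are not independent molecules.

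Peaks overlapping by 1 bp were merged over libraries. A merged OCR took the highest peak of each library, the percentile was the rank of the fold enrichment within the library, and the summit was the median over libraries, the lower of the middle values where their number was even. Counts and densities per library are of its peaks. Promoters were 3 kb on either side of any GENCODE M21 transcript start. Differences were tested over libraries with exact two-sided sign-flip permutation tests (128 sign patterns) and Benjamini-Hochberg adjustment within each family. The rule for naming was the 9 members, the elements near Ccr1 and Ccr2, protein-coding genes of the cluster, and up to 4 genes per further list by mean percentile among those with a promoter OCR in all libraries. Outside this rule, and with values seen, the text also names genes whose promoters lie in a window, neighbours and ligands of members, genes of the lists without such an OCR, and all progenitor markers. Members and lists were chosen with earlier results of these data known. Some genes that this rule and the lists name are not reported here.

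Python 3.11.15, numpy 2.4.6, pandas 2.3.3 and scipy 1.17.1 were used. Merging (against bedtools 2.31.1), the step, the test and the motif search were tested on simulated data. Alternatives were peaks with −log10 q of at least 5, lists of 84593 peaks each, promoters of 1 kb, coding starts, windows of 10 and 100 kb, 50% overlap with the core of an OCR, other density measures, log2 fold enrichment, single prefixes, leaving out each library and, added after seeing the data, only peaks that reach into the window. Values of the paper's supplementary list other than the positions of the elements and the gene each is paired with were not used.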

Additional observations from a re-analysis of the deposited data

Results flagged for a closer look

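Of 21 measures with 1 value per library, among them the promoter, distal and element percentiles and the OCR densities, none had a highest or lowest library that stood apart by Dixon's test at the 95% level, which chance alone passes in about 1 group of 20.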

How the results depend on the processing

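Of 193 values recomputed under another setting with 6 or more libraries, 184 stayed on the same side of the threshold with no change of sign in a called difference, or stayed close to the value reported. A further 28 were recomputed within a single prefix, where 3 or 4 libraries cannot pass the threshold (smallest p 0.25 or 0.125 by the exact permutation test), so they give the size and direction only, and each moved by less than the SD over libraries. In 2 called comparisons the sign changed: with windows of 10 kb the Cxcr4 promoter stood 38.7 percentiles above its strongest distal OCR, and with windows of 100 kb the Ccr2 promoter stood at -3.14 against its own. In both, another OCR becomes the strongest, since the setting changes which OCRs are candidates. The other 7 were counts. Windows of 10 kb held 80 merged OCRs, 43 of them in all libraries, and 62.1 peaks per library, windows of 100 kb held 213 merged OCRs and 161 peaks per library, lists of equal length gave 83.6 peaks per library, and promoters of 1 kb left 2 members with a promoter OCR in all libraries. Counts of merged OCRs were taken as close within a ratio of 1.5. The 99 OCRs found in all libraries with windows of 100 kb, compared with 69, were therefore counted as close. The median percentile of the windows minus 50, which passed no threshold under any setting, was -0.428 and turned to 2.14 with windows of 10 kb and to 0.0411 without HPC7-7, and leaving out each library it ran from -1.27 to 0.0411. Leaving out each library in turn ended no call and turned no called difference, and the Ccr1 difference ran from -24 to -22.3, that of Ccr3 from -47.2 to -42.9 and the log2 cluster ratio from 1.35 to 1.38. With promoters of 1 kb, the comparisons of Ccr2, Ccr3 and Cxcr2 and the order of promoters could not be made, with windows of 10 kb that of Cxcr2, and with −log10 q of at least 5 that of the element before Ccr2, which then lacks a peak in at least 1 library. HPC7-1, with the longest list and the highest background, gave 13 of the 15 OCRs found in 1 library, and the part of depth in this was not tested. No paired analysis was possible because the labels give a single condition, so there are no groups whose replicates could be paired, and the tests compare OCRs within each library.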

Other observations

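Of 32 ligand genes matched, 16 had a promoter OCR in all libraries, 6 in some and 10 in none, beside 60.8% of protein-coding genes with one in all libraries. The strongest were Ccl25, the ligand of Ccr9, at 99.3 ± 0.18 (SD, n = 7), the platelet chemokine genes Pf4 and Ppbp, which share an OCR at 96.4 ± 0.574, and Ccl2, the ligand of Ccr2, at 92.7 ± 1.7. Cxcl12, the ligand of Cxcr4, had a promoter OCR in 1 library at percentile 16.4, and Cxcl16, the ligand of Cxcr6, in 3 libraries at 24.9 ± 10.8. Xcl1, the ligand of Xcr1, had none, while Cx3cl1, the ligand of Cx3cr1, had one in all libraries at 83.3 ± 2.84. Cxcl12, Cxcl16, Xcl1 and Cx3cl1 are named as ligands of members and were chosen after their values were seen. 1 listed ligand gene, Cxcl11, was not matched to a protein-coding gene of the annotation.

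Of 23 signalling genes, 20 had a promoter OCR in each library, and its median percentile was 94.8, beside 60.8% and a median of 93.1 over protein-coding genes. Their difference from the ligand genes was not tested. The strongest were Rgs2, a regulator of G-protein signalling, at 99.4 ± 0.184, the phospholipase gene Plcb3 at 99.4 ± 0.216, the receptor kinase gene Grk6 at 99.2 ± 0.2 and Gnai2, which encodes an inhibitory G-protein subunit, at 99.1 ± 0.215. Pik3r5 had one in 2 libraries, and Grk3 and Pik3r6 had none in any.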
